A study of Mus musculus with 8 samples.

Results

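Aminoacyl-tRNA synthetases are the enzymes that join each amino acid to its tRNA before translation. The 36 synthetase genes described here were chosen by name: 20 encode the cytosolic enzymes (symbols with no final 2, with both chains of the phenylalanine enzyme, Farsa and Farsb) and 16 encode mitochondrial enzymes (symbols with a final 2). All 36 were among the 17847 genes of the table, and all 36 passed the filter on low values. The RNA came from sorted satellite cells of C57Bl/6 mice, the Pax7+ stem cells from which skeletal muscle regenerates. There were 4 Cox10-/- libraries and 4 wild-type libraries. Cox10-/- animals carried a floxed Cox10 allele and the tamoxifen-dependent Pax7-Cre (ERT2) driver, which acts in cells that express Pax7. Per the labels, 1 intraperitoneal dose of tamoxifen (200 mg/kg) was given, the wild-type samples included, and cells were purified 2 days after it. The labels do not say whether wild-type animals carried the driver or the floxed allele. No label says that each library came from its own animal, so p-values measure the spread between these libraries.

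The cytosolic enzymes serve the ribosomes of the cytosol, and several of them sit in a multisynthetase complex held by scaffold proteins. The mitochondrial enzymes are encoded in the nucleus, imported, and charge the tRNAs used to make the few respiratory chain subunits that mitochondrial DNA encodes. Gars and Kars each give both the cytosolic and the mitochondrial enzyme, and Eprs carries the glutamate and proline activities in 1 protein. Mitochondria have no glutamine enzyme of their own: glutamate is put on the glutamine tRNA by Ears2 and then converted by the amidotransferase of Qrsl1, Gatb and Gatc. Many cytosolic synthetase genes are known targets of ATF4, which drives transcription in the integrated stress response. Cox10 makes haem O, a step towards the haem A of respiratory complex IV.

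Reads counted in genes, recovered from the steps of the low values, numbered 1693349 to 4348650 in the Cox10-/- libraries and 2148645 to 4650051 in the wild-type libraries. Cox10-/- replicate 4 and wild-type replicate 2 were the shallowest. The libraries most alike were replicates 1 and 2 of each genotype, and likewise replicates 3 and 4, for which the labels give no reason. Cox10 itself averaged 3.19 ± 0.76 log2 CPM (read counts scaled to the same total in each library) in Cox10-/- and 3.80 ± 0.31 in wild-type (SD, n = 4 each), which did not pass the test (-0.62 ± 0.34, limma adjusted p = 0.246), and which exon is floxed is not in the labels. Pax7 averaged 7.33 ± 0.18 log2 CPM in Cox10-/- and 8.62 ± 0.15 in wild-type, and fell (limma adjusted p = 1.9e-05). Summed levels of 9 muscle stem cell markers were 1432 to 1623 CPM in Cox10-/- and 2197 to 2821 CPM in wild-type, and those of 10 endothelial markers 367 to 449 CPM in Cox10-/- and 342 to 352 CPM in wild-type. The 7 fibroblast markers summed to 4606 to 9875 CPM in Cox10-/- and 4534 to 6230 CPM in wild-type, and 7 of the 8 muscle fibre markers were measured and summed to 91.4 to 247 CPM in Cox10-/- and 59.6 to 151 CPM in wild-type. Of 8 immune markers 4 were measured, at 27.7 to 47.4 CPM in Cox10-/- and 25.6 to 35.2 CPM in wild-type, and no measured marker of these lists was at 0 in all libraries. The part of these differences in the synthetase values was not tested, and in such bulk samples fewer cells of a type and less RNA per cell cannot be told apart.

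Synthetase transcripts were lower in Cox10-/- cells or did not pass the test, and none rose. Among the 20 cytosolic genes Dars, Farsb and Iars fell, and among the 16 mitochondrial genes Ears2, Vars2 and Aars2 fell. The mitochondrial transcripts that fell were down to between 45.6% and 54.8% of the wild-type level, and the cytosolic ones to between 64.4% and 73.6%. These ranges hold for the genes picked by the threshold alone and do not compare the 2 lists. Summed over all members, the level was 88.6% of wild-type for the mitochondrial and 83.2% for the cytosolic genes. Such sums weigh the abundant genes most. The median log2 fold changes ranked the lists the other way (-0.40 mitochondrial, -0.28 cytosolic), and the difference between the lists was not tested. The test was limma on log2 CPM over 17801 genes, with Benjamini-Hochberg adjustment and a threshold of 0.05. The calls were 15% of the cytosolic and 18.8% of the mitochondrial genes, beside 8.51% of all genes tested that fell and 7.58% that rose (16.1% in either direction). Rises made up 47.1% of all calls as deposited and 58.4% after each library was shifted to the same median. Among genes in the range of mean level of the cytosolic list 11.6% fell, and in that of the mitochondrial list 8.97%. No test sets these shares apart from the background. With the means of replicates 1 and 2 and of replicates 3 and 4 as 2 samples per genotype, none of the 6 passed.

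**Figure D1:**
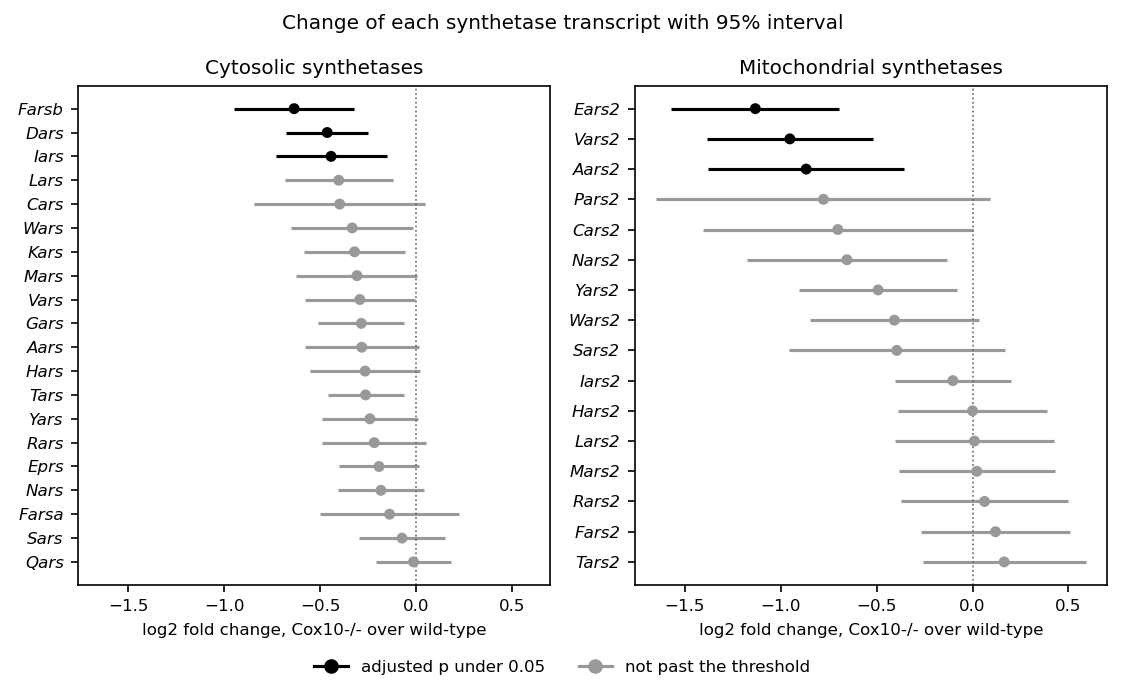
Log2 fold change of Cox10-/- over wild-type for each synthetase (point) with its 95% interval from the fit (line), cytosolic genes on the left and mitochondrial genes on the right. Cytosolic values lie between -0.64 and -0.01, while mitochondrial values spread from -1.13 to 0.17; black marks the 3 and 3 genes past the threshold.

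Dars, which charges aspartate, had 5.99, 6.00, 5.96 and 6.20 log2 CPM in Cox10-/- replicates 1 to 4, against 6.54, 6.60, 6.46 and 6.40 in wild-type replicates 1 to 4. Every Cox10-/- library lay below every wild-type library, and the difference was -0.46 ± 0.10 (log2, SE, n = 4 per genotype; limma adjusted p = 0.00789). Farsb, the beta chain of the phenylalanine enzyme, had 4.61, 4.75, 4.43 and 4.28 log2 CPM in Cox10-/-, against 5.18, 5.07, 5.23 and 5.13 in wild-type. Its groups did not overlap either, and its fall of 0.64 ± 0.14 was larger than that of any other cytosolic member (limma adjusted p = 0.0108). Farsa, the alpha chain of the same enzyme, had 5.51, 5.51, 5.41 and 4.79 log2 CPM in Cox10-/-, against 5.49, 5.40, 5.59 and 5.29 in wild-type. The Farsa groups overlapped, with the shallowest library the lowest, and its difference of -0.14 ± 0.17 did not pass (limma adjusted p = 0.618). Iars, which charges isoleucine, had 6.73, 6.74, 6.42 and 6.23 log2 CPM in Cox10-/-, against 7.17, 7.07, 6.85 and 6.80 in wild-type. The groups did not overlap and the fall was 0.44 ± 0.13 (limma adjusted p = 0.0405), with replicates 1 and 2 above replicates 3 and 4 in both genotypes. Whichever of the 8 libraries was left out, Dars and Farsb still passed, whereas Iars did not pass in 5 of these fits (without wild-type replicate 1, 2 or 3, or without Cox10-/- replicate 3 or 4). Dars and Iars did not pass after median centring. Iars also missed the threshold without the 2 shallowest libraries, without the trend of the variance prior and with limma-voom on recovered reads.

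Ears2, the mitochondrial glutamate enzyme, had 3.51, 3.09, 3.32 and 3.05 log2 CPM in Cox10-/-, against 4.30, 4.11, 4.64 and 4.45 in wild-type. Its highest Cox10-/- library lay below its lowest wild-type library, and its fall of 1.13 ± 0.20 was the largest among the 36 members (limma adjusted p = 0.00272). Vars2, for valine, had 4.23, 4.03, 4.20 and 3.63 log2 CPM in Cox10-/-, against 5.04, 4.54, 5.26 and 5.06 in wild-type. It fell by 0.95 ± 0.20 with no overlap (limma adjusted p = 0.00688), and wild-type replicate 2 was the lowest of its group. Aars2, for alanine, had 3.89, 3.49, 3.32 and 2.94 log2 CPM in Cox10-/-, against 4.15, 4.07, 4.23 and 4.66 in wild-type. It fell by 0.87 ± 0.24 with no overlap (limma adjusted p = 0.0262). Ears2 and Vars2 passed whichever library was left out, and Aars2 did not pass in 5 of the 8 fits (without wild-type replicate 1, 3 or 4, or without Cox10-/- replicate 3 or 4). The values of Ears2 rest on 14 to 116 reads per library, those of Vars2 on 21 to 178 and those of Aars2 on 13 to 102.

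**Figure D2:**
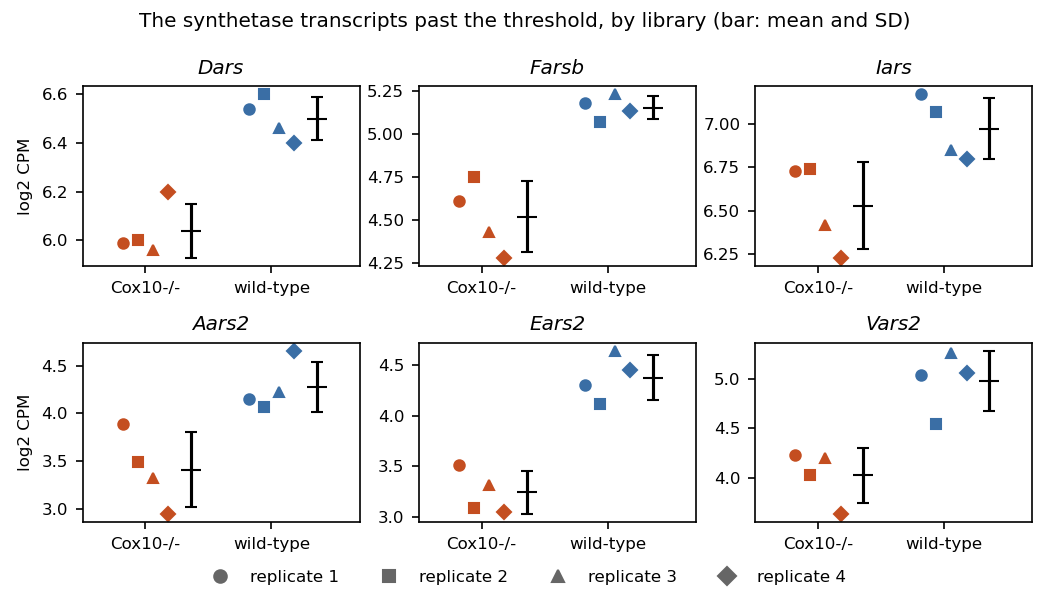
Log2 CPM of the 6 synthetase transcripts past the threshold in each library, Cox10-/- left and wild-type right, with 1 symbol per replicate number and the mean and SD of 4 libraries as a bar. In each of the 6 panels every Cox10-/- library lies below every wild-type library; each panel has its own axis, which does not start at 0.

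The promoter stretches of these 6 genes are shown because they are the members whose transcripts fell. Promoter windows from RefSeq (build GRCm38.p6, from 250 bases before to 50 after the start of the gene) were at hand for 26 of the 36 members, 12 cytosolic and 14 mitochondrial, and the 150 bases before the start are given, 5′ to 3′ in the direction of the gene. Capitals mark the E-box CACGTG, a site type bound by basic helix-loop-helix factors such as Myc.
Dars, chr1:128417417-128417566, minus strand: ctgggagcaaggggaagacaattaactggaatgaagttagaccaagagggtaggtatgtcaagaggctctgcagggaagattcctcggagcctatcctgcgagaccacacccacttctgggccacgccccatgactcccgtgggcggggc
Farsb, chr1:78488898-78489047, minus strand: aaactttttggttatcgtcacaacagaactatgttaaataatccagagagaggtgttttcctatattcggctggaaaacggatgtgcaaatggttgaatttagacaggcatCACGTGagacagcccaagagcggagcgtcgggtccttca
Iars, chr13:49681980-49682129, plus strand: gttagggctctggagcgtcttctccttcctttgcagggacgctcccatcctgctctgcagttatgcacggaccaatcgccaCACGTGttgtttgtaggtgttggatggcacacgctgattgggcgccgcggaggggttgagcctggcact
Aars2, chr17:45506682-45506831, plus strand: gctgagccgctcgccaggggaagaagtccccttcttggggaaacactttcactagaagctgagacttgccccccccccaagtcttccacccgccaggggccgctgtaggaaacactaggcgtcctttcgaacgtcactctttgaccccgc
Ears2, chr7:122067087-122067236, minus strand: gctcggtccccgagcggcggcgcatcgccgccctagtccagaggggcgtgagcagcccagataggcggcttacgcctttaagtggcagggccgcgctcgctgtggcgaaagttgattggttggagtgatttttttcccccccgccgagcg
Vars2, chr17:35667593-35667742, minus strand: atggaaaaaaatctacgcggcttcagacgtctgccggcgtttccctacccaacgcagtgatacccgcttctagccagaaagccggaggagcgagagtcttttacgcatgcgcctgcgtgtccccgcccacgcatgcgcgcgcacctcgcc
The bases just past the RefSeq start of Dars, Aars2 and Gars were not found in a GENCODE M21 transcript of the same gene, so their starts are uncertain. In the whole windows CACGTG was found for Farsb, 39 bases before the start, for Iars, 69 bases before it, and for Ears2, past the start. Those are 3 of the 6 genes that fell, and Aars and Tars, which did not pass, held it too. Of 27025 gene windows 7.24% held CACGTG, and the match is a description of the letters, not of a bound factor.

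The other cytosolic transcripts lay below wild-type by smaller amounts. Log2 fold changes of all 20 were below 0 in the values as deposited, beside 55% of all genes, with 18 of 20 below 0 after median centring, where Qars (0.07) and Sars (0.01) turned. The median was -0.28, beside -0.06 over all genes tested. In 6 of the 20 (30%) all Cox10-/- libraries lay below all wild-type libraries, beside 11.8% of all genes, and in none did all lie above, beside 9.30%. The 6 were Dars, Farsb, Iars, Gars, Lars and Tars. Lars, for leucine, had 6.66, 6.64, 6.37 and 6.05 log2 CPM in Cox10-/-, against 6.91, 6.80, 6.84 and 6.78 in wild-type, and missed the threshold (-0.40 ± 0.13, limma adjusted p = 0.0541). Tars, for threonine, had 6.30, 6.50, 6.44 and 6.55 log2 CPM in Cox10-/-, against 6.74, 6.76, 6.66 and 6.68 in wild-type, and did not pass (-0.26 ± 0.09, limma adjusted p = 0.07). Gars, for glycine, had 6.12, 6.25, 6.38 and 6.38 log2 CPM in Cox10-/-, against 6.53, 6.47, 6.53 and 6.74 in wild-type (-0.29 ± 0.10, limma adjusted p = 0.0793).

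Qars, for glutamine, was the cytosolic member that moved least. It had 6.40, 6.42, 6.47 and 6.40 log2 CPM in Cox10-/-, against 6.36, 6.36, 6.54 and 6.48 in wild-type, and the 95% interval of its difference ran from -0.21 to 0.18. Sars, for serine, differed by -0.07 with an interval from -0.29 to 0.15. The remaining cytosolic members that did not pass, apart from those named above, lay between -0.40 for Cars and -0.18 for Nars, among them Wars (-0.33), Kars (-0.32), Mars (-0.31), Vars (-0.29), Aars (-0.28), Hars (-0.27), Yars (-0.24), Rars (-0.22) and Eprs (-0.19).

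Summed over the 20 cytosolic genes, the level was 1712 ± 117 CPM in Cox10-/- and 2056 ± 96.7 CPM in wild-type (SD, n = 4 each), or 83.2% of wild-type. The sums were 1784, 1822, 1680 and 1560 CPM in Cox10-/- replicates 1 to 4, against 2153, 2126, 1972 and 1975 CPM in wild-type replicates 1 to 4. The groups did not overlap, and in both genotypes replicates 1 and 2 held more than replicates 3 and 4. The sum over the 16 mitochondrial genes was 451 ± 11.2 CPM in Cox10-/- and 509 ± 55.3 CPM in wild-type, 88.6% of wild-type. It was 454, 455, 461 and 435 CPM in Cox10-/-, against 501, 434, 556 and 544 CPM in wild-type. These groups overlapped through wild-type replicate 2, the shallower of its genotype.

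**Figure D3:**
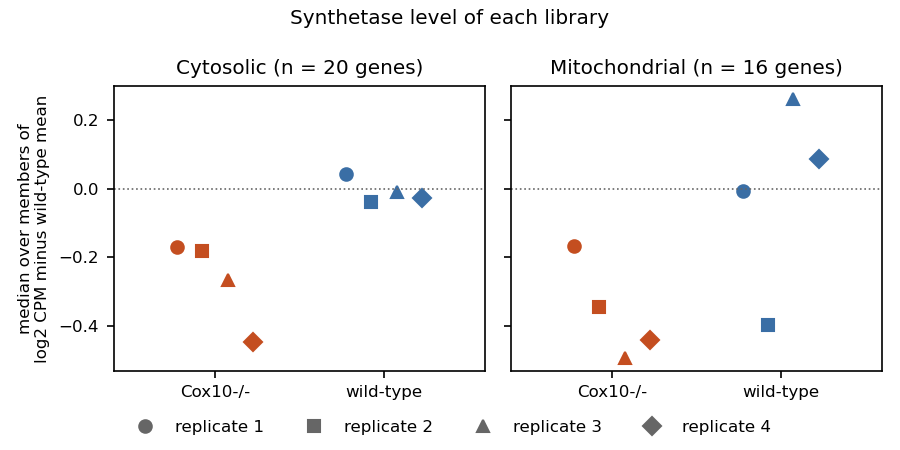
Median over the members of log2 CPM minus the wild-type mean of each gene, for each library, with Cox10-/- left and wild-type right in each panel and 1 symbol per replicate number. Cytosolic medians lie between -0.45 and -0.17 in Cox10-/- and between -0.04 and 0.04 in wild-type; mitochondrial medians lie between -0.49 and -0.17 in Cox10-/- and between -0.40, in replicate 2, and 0.26 in wild-type.

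Mitochondrial synthetases were uneven. Of the 16, 10 (62.5%) lay below 0, beside 55% of all genes and 57.8% of genes in the same range of level. Hars2 lay at 0 and 5 lay above 0, with a median of -0.40, beside -0.06 over all genes. In 4 of 16 (25%) all Cox10-/- libraries lay below all wild-type libraries, beside 11.8% of all genes: the 3 that fell and Yars2. Yars2, for tyrosine, had 3.91, 3.61, 3.45 and 3.49 log2 CPM in Cox10-/-, against 4.13, 4.29, 4.09 and 3.92 in wild-type, and did not pass (-0.49 ± 0.19, limma adjusted p = 0.0973). Nars2, for asparagine, had 3.80, 3.27, 3.36 and 2.82 log2 CPM in Cox10-/-, against 3.93, 3.70, 4.23 and 4.01 in wild-type (-0.65 ± 0.24, limma adjusted p = 0.0828). Its Cox10-/- replicate 1 lay above wild-type replicate 2, so the groups overlapped. Cars2, for cysteine, had 4.16, 3.74, 3.49 and 2.82 log2 CPM in Cox10-/-, against 4.08, 3.54, 4.58 and 4.82 in wild-type. Its difference of -0.70 ± 0.32 did not pass (limma adjusted p = 0.163): it was 0.14 within replicates 1 and 2 and -1.54 within replicates 3 and 4. Pars2, for proline, had 0, 1.05, 1.17 and 1.82 log2 CPM in Cox10-/-, against 2.08, 1.22, 1.95 and 1.90 in wild-type. It was the scarcest member, with Cox10-/- replicate 1 at 0, where the table puts any CPM of 1 or less. Pars2 had at most 18 reads in any library, and its difference of -0.78 ± 0.40 did not pass. Wars2 (-0.41) and Sars2 (-0.40) did not pass either.

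Those at or above 0 were Tars2 (0.17), Fars2 (0.12), Rars2 (0.06), Mars2 (0.02), Lars2 (0.01) and Hars2 (0), and Iars2 lay at -0.10. Tars2 had 6.04, 6.01, 5.85 and 5.19 log2 CPM in Cox10-/-, against 5.80, 5.22, 5.59 and 5.82 in wild-type, with a 95% interval from -0.26 to 0.59. Cox10-/- replicate 4 was below all wild-type libraries and the other Cox10-/- libraries were above them. Hars2 had 5.33, 5.14, 5.42 and 4.85 log2 CPM in Cox10-/-, against 5.10, 4.78, 5.42 and 5.44 in wild-type, with an interval from -0.39 to 0.39. Lars2, for leucine, had 6.22, 6.31, 6.71 and 7.20 log2 CPM in Cox10-/-, against 6.51, 6.89, 6.43 and 6.57 in wild-type. Its highest value in each genotype was in the shallowest library of that genotype, Cox10-/- replicate 4 and wild-type replicate 2, whereas in wild-type replicate 2 the median mitochondrial member lay 0.40 below its wild-type mean.

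Within replicates 1 and 2 the median log2 fold change was -0.23 over the cytosolic and -0.04 over the mitochondrial genes, and within replicates 3 and 4 it was -0.34 over the cytosolic and -0.48 over the mitochondrial genes. Cytosolic members below 0 numbered 17 in replicates 1 and 2 (Farsa and Qars lay above 0 and Rars at 0) and 20 in replicates 3 and 4. Mitochondrial members below 0 numbered 8 in replicates 1 and 2 and 15 in replicates 3 and 4, where Lars2 (0.46) was the exception. The order of the medians thus differed between these pairs of replicates, with the cytosolic median lower in replicates 1 and 2 and the mitochondrial median lower in replicates 3 and 4. Ears2 differed by -0.91 in replicates 1 and 2 and by -1.36 in replicates 3 and 4, and Vars2 by -0.66 and -1.25. With replicates 1 and 2 alone no mitochondrial member passed, and with replicates 3 and 4 alone 4 did. Most mitochondrial members shifted between the replicate pairs in opposite directions in Cox10-/- and wild-type. In both genotypes 1 of the 16 was higher in replicates 1 and 2 than in replicates 3 and 4, and 2 were lower. The part of depth and of these replicate pairs in the result was not tested.

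Set side by side for the same amino acid, the mitochondrial partner had the lower log2 fold change in 9 of 17 pairings and the higher one in 8. The pairings where it was lowest relative to its partner were glutamate (Ears2 -1.13, Eprs -0.19), valine (Vars2 -0.95, Vars -0.29), alanine (Aars2 -0.87, Aars -0.28) and proline (Pars2 -0.78, Eprs -0.19). At the other end stood phenylalanine (Fars2 0.12, Farsb -0.64), threonine (Tars2 0.17, Tars -0.26), leucine (Lars2 0.01, Lars -0.40) and isoleucine (Iars2 -0.10, Iars -0.44). In no pairing did both partners pass the threshold, and aspartate, whose cytosolic enzyme Dars fell, had no pairing. Differences between partners were not tested. Aspartate, glutamine, glycine and lysine have no mitochondrial partner in the list.

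**Figure D4:**
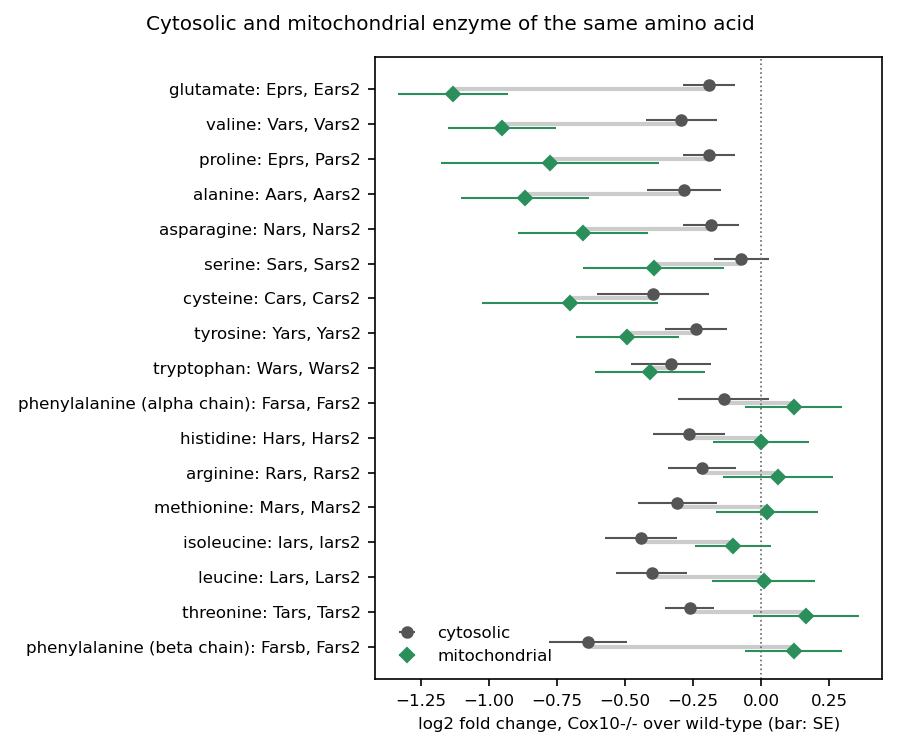
Log2 fold change of Cox10-/- over wild-type, with its SE, for the cytosolic (circle) and mitochondrial (diamond) enzyme of each amino acid, ordered by the mitochondrial minus the cytosolic value. The mitochondrial value is the lower one in the upper 9 rows and the higher one in the lower 8, from -0.94 for glutamate to 0.76 for phenylalanine (beta chain); Eprs and Fars2 each appear in 2 rows.

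Levels were compared between genes per kb of exon, with lengths from GENCODE M21 (GRCm38), which may differ from the gene models used for counting. On this scale cytosolic means ran from 3.38 to 6.14 log2 CPM per kb in Cox10-/- and from 3.90 to 6.33 in wild-type, and mitochondrial means from -0.60 to 4.65 in Cox10-/- and from 0.18 to 4.64 in wild-type. Eprs was the highest in wild-type (6.33 ± 0.16 log2 CPM per kb), above Nars (5.34 ± 0.17), Gars (5.32 ± 0.12) and Dars (5.20 ± 0.09), and these last 3 lay within their spread of each other. Wars (3.90 ± 0.19) and Farsb (4.02 ± 0.07) were the lowest cytosolic members in wild-type and also lay within their spread. Lars2 (4.64 ± 0.20) was the mitochondrial member with the highest mean in wild-type, between Mars (4.65 ± 0.14) and Sars (4.59 ± 0.08). Iars2 (3.76 ± 0.28), which lay within its spread of Wars, Tars2 (3.49 ± 0.28) and Hars2 (3.45 ± 0.31) followed with overlapping spreads. The 3 mitochondrial members that fell were not the most abundant ones: Ears2 was at 2.21 ± 0.21 log2 CPM per kb in Cox10-/- and 3.34 ± 0.22 in wild-type, Vars2 at 1.88 ± 0.28 in Cox10-/- and 2.83 ± 0.31 in wild-type, and Aars2 at 1.67 ± 0.39 in Cox10-/- and 2.53 ± 0.26 in wild-type. In wild-type Ears2 ranked 25 of 36 and in Cox10-/- its mean lay below those of Sars2 (2.32 ± 0.23) and Cars2 (2.62 ± 0.56).

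**Figure D5:**
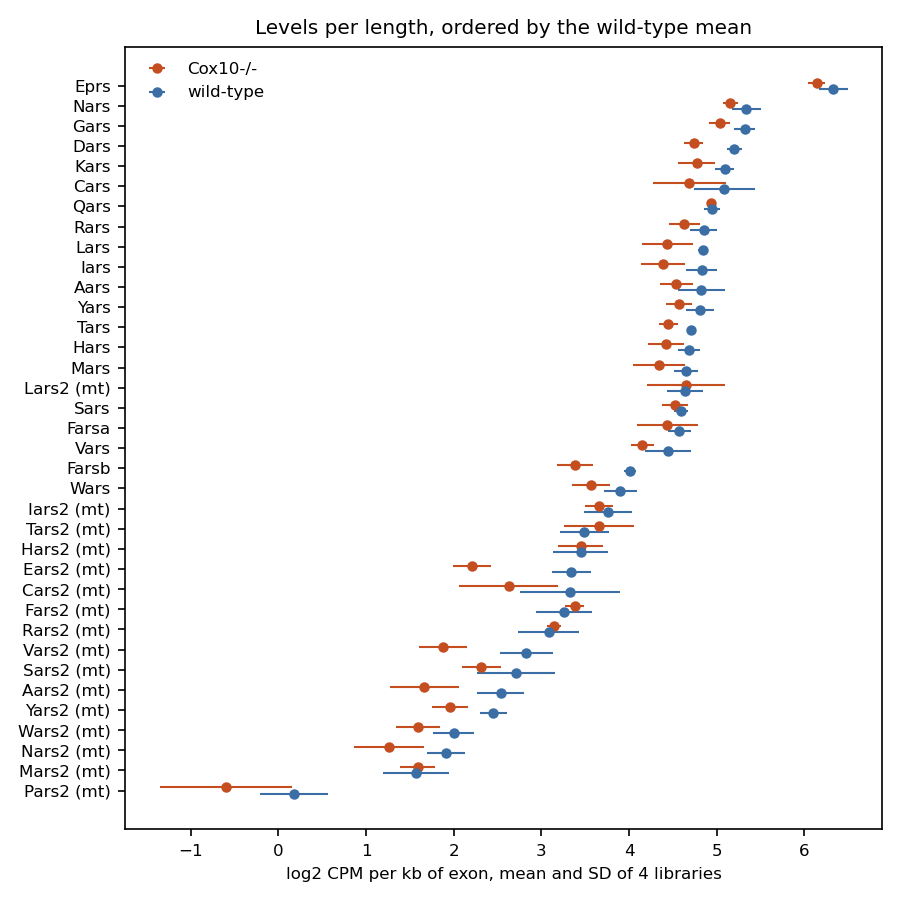
Mean and SD over 4 libraries of log2 CPM per kb of exon for each synthetase, ordered by the wild-type mean, with Cox10-/- above wild-type for each gene and mitochondrial members marked mt. Cytosolic genes fill the upper rows, apart from Lars2, and Pars2 is the lowest in both genotypes (-0.60 in Cox10-/- and 0.18 in wild-type).

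The calls were also counted by role, beside 8.51% of all genes that fell. Of the 12 cytosolic genes known as ATF4 targets 1 fell (Iars, 8.33%) and all 12 lay below 0, with a median of -0.28, and of the other 8 cytosolic genes 2 fell (Dars and Farsb, 25%) with a median of -0.28. With a term that separates replicates 1 and 2 from replicates 3 and 4 in the limma fit, 8 cytosolic genes passed: Dars, Farsb, Iars, Lars (adjusted p = 0.018), Aars (0.0183), Cars (0.0193), Gars (0.0359) and Tars (0.0498). In the ATF4-linked group 6 of 12 were higher in replicates 1 and 2 than in replicates 3 and 4 in both genotypes, such as Aars, which had 7.18, 7.26, 6.92 and 6.89 log2 CPM in Cox10-/- and 7.55, 7.60, 7.08 and 7.15 in wild-type. Cars had 6.79, 6.59, 6.28 and 5.84 log2 CPM in Cox10-/- and 7.09, 7.04, 6.57 and 6.39 in wild-type. In both genes the values of replicates 3 and 4 of wild-type lay below those of replicate 1 of Cox10-/-, so the groups overlapped. By catalytic fold, 3 of 19 class I (15.8%) and 3 of 17 class II genes (17.6%) fell. Of the 8 enzymes of the multisynthetase complex Dars and Iars fell (25%), and none of its 3 scaffolds passed: Aimp1 differed by -0.23 ± 0.11, Aimp2 by -0.23 ± 0.33 and Eef1e1 by -0.90 ± 0.33.

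The ATF4 response element appears in the promoter windows of several cytosolic members, shown here because the ATF4-linked group was measured as a whole. Its core TGATGNAA was searched on both strands (N is any base). It was found in 5 of the 12 cytosolic windows, all of them genes of the ATF4-linked group, in none of the 14 mitochondrial windows, and in 4.06% of all 27025 windows. For each of the 5 genes the 28 bases around 1 match are given in the direction of the gene, with the match in capitals; TTGCATCA and TTTCATCA are matches on the other strand.
Aars, chr8:111033841-111033868, plus strand: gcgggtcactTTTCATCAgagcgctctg
Iars, chr13:49682127-49682154, plus strand: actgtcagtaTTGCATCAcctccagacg
Tars, chr15:11399656-11399683, minus strand: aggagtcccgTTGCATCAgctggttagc
Yars, chr4:129189896-129189923, plus strand: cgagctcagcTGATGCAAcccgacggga
Gars, chr6:55037961-55037988, plus strand: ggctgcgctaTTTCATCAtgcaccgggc
Of these 5 genes Iars fell and Aars, Gars, Tars and Yars, at -0.24 to -0.29, did not pass; with the term for the replicate pairs Aars, Gars and Tars passed too. The printed matches of Aars, Iars and Yars lay past the start of the gene. Those of Tars and Gars lay before it, and the start of Gars is uncertain. A match is not a bound site, and nothing is drawn from windows without one. The core CCGGAAG of ETS factors was found for Farsa, Gars, Kars, Sars, Cars2, Mars2, Rars2 and Sars2 (9.12% of all windows) and the NRF1 palindrome in no member window (0.977% of all windows).

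Genes that work beside the synthetases were counted by list, beside 8.51% of all genes that fell and 7.58% that rose. Of 11 measured mitochondrial translation factors 2 fell (18.2%). Tufm, the mitochondrial elongation factor that carries charged tRNA to the ribosome, had 4.89, 4.72, 5.01 and 4.73 log2 CPM in Cox10-/-, against 5.42, 5.37, 5.56 and 5.43 in wild-type (-0.61 ± 0.12, limma adjusted p = 0.00641). The initiation factor Mtif2 fell by 0.54 ± 0.15 (limma adjusted p = 0.0249). Of 14 genes of mitochondrial tRNA maturation and modification 1 fell (7.14%), the methyltransferase Trmt5 (-0.85 ± 0.26, limma adjusted p = 0.0468). Of 5 other measured genes of mitochondrial charging none passed, among them the amidotransferase subunit Qrsl1, with 2.75, 2.46, 2.17 and 0.82 log2 CPM in Cox10-/- and 3.08, 3.14, 3.40 and 3.12 in wild-type (-1.14 ± 0.38, limma adjusted p = 0.0617), Gatc (-0.44 ± 0.17) and Gatb (-0.25 ± 0.20). Of 9 cytosolic elongation and termination factors 1 fell (11.1%), Eef1g, a subunit of the exchange factor that reloads elongation factor 1 (-0.56 ± 0.12, limma adjusted p = 0.00627). Of 3 measured synthetase-like and proofreading genes none passed. Names here that the rule did not select (Qrsl1, Gatb, Gatc and the 3 scaffolds above) were chosen after their values were seen.

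Of 12 measured amino acid transporters 4 rose, 1 fell and 7 did not pass, beside 7.58% of all genes that rose and 8.51% that fell. Slc43a1, a carrier of large neutral amino acids, had 7.47, 7.63, 7.57 and 7.47 log2 CPM in Cox10-/-, against 6.26, 6.38, 6.41 and 6.66 in wild-type (1.11 ± 0.10, limma adjusted p = 3.04e-05). The glutamine carrier Slc1a5 rose by 0.75 ± 0.15 (limma adjusted p = 0.00514), Slc7a6 by 0.67 ± 0.12 (limma adjusted p = 0.00302) and Slc3a2, the heavy chain that pairs with several carriers, by 0.38 ± 0.10 (limma adjusted p = 0.0219). The glutamine carrier Slc38a1 fell by 0.69 ± 0.16 (limma adjusted p = 0.0105). Of 24 measured genes of the ATF4 axis 4 rose and 4 fell (16.7% each), beside 7.58% of all genes that rose and 8.51% that fell. Those that rose were Cbs (1.75 ± 0.26) and Cth (1.86 ± 0.31), which make cystathionine and cleave it to cysteine, Chac1 (0.91 ± 0.24) and Ddit4 (0.47 ± 0.13), and those that fell were Pycr1 (-2.41 ± 0.41) and Aldh18a1 (-1.01 ± 0.21), both of proline synthesis, Psat1 (-1.12 ± 0.21), of serine synthesis, and the kinase Eif2ak2 (-0.71 ± 0.18). Atf4 itself had 7.25, 7.31, 7.36 and 7.68 log2 CPM in Cox10-/-, against 7.33, 7.48, 7.05 and 7.02 in wild-type, and did not pass (0.18 ± 0.13, limma adjusted p = 0.366). Asns, which makes asparagine, did not pass either (0.39 ± 0.28, limma adjusted p = 0.384). Chac1, Ddit4, Aldh18a1, Eif2ak2, Slc3a2, Atf4 and Asns were named after their values were seen.

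Some members share exon bases with other genes in GENCODE M21, and whether counting used the strand is not given in the sources used here. Of the genes that fell, 11.3% of the exon bases of Farsb overlap Sgpp2, 6.69% of those of Vars2 overlap Gm20483 and 4.35% of those of Ears2 overlap Ubfd1, all on the other strand. Among the rest, 30.5% of Iars2 overlaps Rab3gap2 on the other strand and 23.1% of Aars overlaps Exosc6 on the same strand. Hars and Hars2 overlap on opposite strands over 195 bases. How many reads fall in these overlaps was not measured, and the values of these genes are uncertain for that reason.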

How the data were processed

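RNA-seq of 8 libraries was deposited as 1 table of log2 CPM. Its deposited unit is log2 CPM, per the file headers, rounded to 2 decimals, with every CPM of 1 or less at 0. Per the submitters' processing notes, Trim Galore, HISAT2, featureCounts and DESeq2 were used with build mm9; tool versions were not given in the sources used here. A further 1054 rows held no gene and were left out, and the column of means over all samples was not used. Low values lay on steps of 1 read (100% of those up to 20 reads within 0.1 of a whole number), which gave the depths. Counting noise limits the scarce members.

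The test was limma 3.58.1 (R 4.3.3), Cox10-/- over wild-type, on the deposited log2 values, without an added pseudocount, on genotype alone, with a variance prior that follows mean level and Benjamini-Hochberg adjustment over 17801 genes with a value above 0 in at least 4 libraries. The functions were tested on simulated data. Alternatives were other filters, pseudocounts (1 and 0.5), median centring, terms for replicates, means of replicates, fewer libraries, another prior and limma-voom on recovered reads. A member is any gene of the list, and other genes were named by smallest p (up to 4 called genes per list), with Cox10 and Pax7 as checks and exceptions stated. Members, lists and motifs were chosen with earlier results of these data known. The log2 fold change of a gene with a library at 0 is a difference from the floor. Counts of libraries of the same genotype differed by more than sampling noise in every pairing (chi-square divided by its degrees of freedom, 2.82 to 9.16). Promoter windows came from RefSeq on GRCm38.p6, not the build used for counting, and serve for sequence alone. Some items are not reported here.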

Additional observations from a re-analysis of the deposited data

Results flagged for a closer look

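For 5 of the 72 sets of 4 values (36 members in each genotype) 1 library stood far from the other 3, where about 1 in 20 sets is flagged by chance. In Cox10-/- replicate 4, the shallowest library, Dars was high (6.20 log2 CPM, against 5.96 to 6.00 in the other Cox10-/- libraries), and Farsa (4.79, against 5.41 to 5.51), Hars (5.10, against 5.49 to 5.55) and Mars (5.47, against 6.01 to 6.11) were low. In wild-type replicate 2, the other shallow library, Rars was low (5.70, against 5.97 to 6.02 in the other wild-type libraries). The part of depth in these values was not tested.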

How the results depend on the processing

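Over 20 alternative settings, 166 of 182 summary values were counted as kept. That share does not measure stability, since some of these values could not change. The medians are fixed by the balanced design under the replicate block, the term for replicate pairs, 2 means per genotype and the other prior. Counts of synthetases that rose, 0 in the main fit, also enter the share. A median was kept if it moved by less than its pooled SD between replicates (0.09 cytosolic, 0.22 mitochondrial, 0.21 for their difference). Such a median could still turn sign, as the difference of medians did without wild-type replicate 3 (-0.01). A count was kept within a fixed ratio, so that 3 calls becoming 2 or 4 were kept. The causes of the changes below were not tested, beyond fewer samples where a setting has them. Cytosolic genes that fell numbered 1 after median centring, 6 with the replicate block, 8 with a term separating replicates 1 and 2 from the others, 0 with 2 means per genotype and 5 with replicates 3 and 4 alone. Mitochondrial genes that fell numbered 0 with 2 means per genotype and 0 with replicates 1 and 2 alone. Over all genes 445 rose and 413 fell with 2 means per genotype, and 871 fell with replicates 1 and 2 alone. With those the mitochondrial median was -0.04, and the cytosolic minus the mitochondrial median, 0.12 in all libraries, was -0.19. Leaving out 1 library gave 952 to 1725 genes that fell and 873 to 1439 that rose, 2 to 4 cytosolic and 2 to 4 mitochondrial calls, and a difference of medians of -0.01 to 0.17.

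Of the 36 members 11 turned sign under some setting, Cars2 (-0.70 in all libraries) and Sars2 (-0.40) among them. Hars2 had a difference of 0 over all libraries, so it could not enter this count. Its difference was 0.295 with replicates 1 and 2 alone and -0.295 with replicates 3 and 4 alone. It ran from -0.135 to 0.11 when 1 library was left out. With replicates 1 and 2 alone the log2 fold change was 0.065 for Farsa, 0.05 for Qars, 0.14 for Cars2, 0.21 for Iars2, -0.43 for Lars2 and 0.06 for Sars2. With replicates 3 and 4 alone it was -0.14 for Fars2, -0.13 for Mars2, -0.02 for Rars2 and -0.18 for Tars2. Without the 2 shallowest libraries it was 0.02 for Farsa, -0.03 for Fars2, -0.09 for Lars2, -0.10 for Mars2 and -0.14 for Rars2. Median centring gave 0.07 for Qars and 0.01 for Sars. With limma-voom on recovered reads, chosen after seeing the data, it was -0.039 for Lars2, -0.016 for Mars2 and -0.0031 for Rars2. Leaving out 1 library gave -0.21 to 0.034 for Farsa, -0.037 to 0.022 for Qars, -0.033 to 0.21 for Fars2, -0.19 to 0.14 for Lars2, -0.15 to 0.12 for Mars2 and -0.11 to 0.14 for Rars2.

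Same-numbered libraries correlated at 0.0453 to 0.137 in their deviations, and 2 of 4 correlated best with their own number, so the replicate block (6 cytosolic calls) pairs samples by number alone. The planned edgeR and DESeq2 fits were not run on the deposited values, which are not counts. Nor were they run on the recovered reads, for which limma-voom was used instead. Depth limits Pars2, with 5 to 18 reads in the libraries where it was above 0. In Cox10-/- replicate 1, where it was at 0, its count is unknown and could be at most 4 reads.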
